A study of Rattus norvegicus with 36 samples.

Results

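Osteopontin is the secreted phosphoprotein encoded by Spp1, and the level of its mRNA was followed here in the lungs of rats that breathed crystalline silica, the quartz dust that causes silicosis. Of the 21792 probes in the deposited array table, 1 carries the symbol Spp1 in the annotation (RefSeq NM_012881, gene ID 25353), and all values of the gene, 1 of the 13315 with a symbol here, come from that probe. In the rat assembly GRCr8 the gene lies on chromosome 14, from base 5613569 to base 5620695. Spp1 was chosen from its own levels, with its response to silica in these same rats already known, so the levels and the silica against air differences below are a description and carry no test.

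The 36 Illumina rat BeadChip arrays held lung total RNA, each from 1 male CDF Fisher 344 rat, with an age of 3 months in the labels. The 6 groups had 6 rats each: silica and air for 3 weeks, silica and air for 6 weeks, and silica and air for 12 weeks. Silica rats inhaled 15 mg/m3 for 6 hours a day on 5 days, which is read here as 5 days of each week, and air rats breathed air on the same schedule. No genotype, transgene or further agent is named for any group, and each length of exposure had air rats of its own.

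Osteopontin binds CD44 and several integrins, through which it recruits and holds macrophages and T cells. Proteases such as thrombin and matrix metalloproteinases cut it and expose or remove its binding sites. It was first known from bone, where osteoblasts and osteoclasts make it. In injured and fibrotic lung it is made in large part by macrophages, often together with Trem2, Gpnmb and other genes of lipid-handling and scar-associated macrophages.

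Levels are log2 values of the normalized, background-corrected intensity, and 1 unit is a doubling. Arrays had mean raw intensities of 344.6 to 519 and detected 48.7% to 53.1% of probes, and the number of rats limits the precision of every value. Week and array set cannot be told apart for levels, because the 12 arrays of the 6-week rats lay at 22.7 to 29.8 on the first principal component (54.5% of the variance) and the 3-week and 12-week arrays at -25.0 to -8.10, apart from 2 arrays. These were air replicate 5 at 3 weeks, at 8.72, and silica replicate 3 at 12 weeks, at 15.1. Silica was therefore set against the air rats of the same week. Silica against air calls below that ended or began without these 2 arrays are marked as such. So are list counts that moved by over 1.5 times. Silica effects compared between weeks were refitted without these arrays for Spp1 only. Type II pneumocyte genes were well measured (6 of 8 listed genes had detected probes, the other 2 having no probe here), while the bone-forming cell genes Bglap, Sp7 and Sost were not detected.

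Spp1 mRNA was higher on average in silica rats than in air rats at each of the 3 weeks, by 1.38-fold at 3 weeks, 2.08-fold at 6 weeks and 5.78-fold at 12 weeks. At 12 weeks every silica rat lay above every air rat of that week. At 3 and 6 weeks the groups overlapped. Between the highest and lowest rat of a group the level differed by 2.17-fold (silica) and 2.86-fold (air) at 3 weeks. At 6 weeks it differed by 6.42-fold (silica) and 6.89-fold (air).

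At 3 weeks the Spp1 level had a lowest value of 6.62, a median of 7.45 and a highest of 7.74 in silica rats, against 6.32, 6.92 and 7.84 in air rats. The highest rat of that week was an air rat, so 0 of 6 silica rats lay above all air rats, although 5 of 6 lay above the air median. The group means were 7.37 ± 0.40 in silica rats and 6.91 ± 0.56 in air rats (SD, n = 6 each), a difference of 0.46 ± 0.40 (SE of the fit). That difference was about as large as this error, which is shared by all 6 groups. With the arrays of 3 weeks only, the error was 0.25.

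At 6 weeks the level had a lowest value of 6.34, a median of 7.38 and a highest of 9.02 in silica rats, against 5.16, 6.35 and 7.94 in air rats. These were the widest spreads of the study on this scale. The highest silica rat stood 6.42-fold above the lowest silica rat, and the highest air rat 6.89-fold above the lowest air rat. On the authors' log2 values these were 3.19-fold and 2.38-fold, and the silica rats of 12 weeks spread 2.42-fold. The size and order of the spreads thus depend on the processing. Again 5 of 6 silica rats were above the air median, and 2 of 6 were above all air rats. The means were 7.50 ± 0.95 in silica rats and 6.45 ± 1.05 in air rats (SD, n = 6 each), a difference of 1.06 ± 0.40. With the arrays of 6 weeks only, its error was larger, at 0.495. The difference was 0.42 when the background was inferred from all probes instead of those on the negative-control grid. Under that setting the 3-week difference was 0.16.

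At 12 weeks the lowest level was 8.74, the median 9.56 and the highest 10.18 in silica rats, against 6.12, 6.98 and 7.69 in air rats. All 6 silica rats were above all 6 air rats, with a gap of 1.06 between the lowest silica rat and the highest air rat. Of these silica rats 3 lay between 10.01 and 10.18 and 3 between 8.74 and 9.12, and the lowest of them was replicate 3, 1 of the 2 arrays that stood apart. The means were 9.48 ± 0.67 in silica rats and 6.95 ± 0.58 in air rats (SD, n = 6 each), a difference of 2.53 ± 0.40, and 2.68 without the 2 arrays. With the arrays of 12 weeks only, the error was 0.309.

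On the raw scale the mean bead intensity of Spp1 was 205.7 in silica rats and 163.6 in air rats at 3 weeks. It was 237.9 in silica rats and 131.6 in air rats at 6 weeks, and 896 in silica rats and 170.6 in air rats at 12 weeks. The lowest raw intensity of any rat was 66.6, in an air rat at 6 weeks, while the background mean of the arrays ran from 42.1 to 52.3. Spp1 was detected on all 36 arrays, so no value is a bound, but the air levels lie near enough to background for its correction to count. The authors' own log2 values gave the same direction with smaller differences, of 0.24, 0.52 and 1.81 at 3, 6 and 12 weeks.

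**Figure D1:**
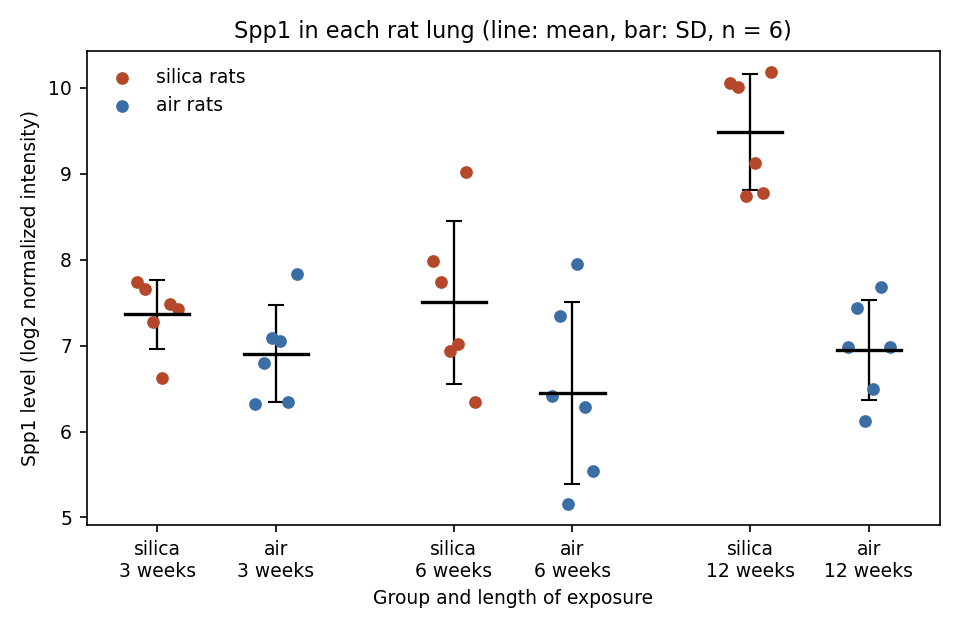
Spp1 level of every rat (vertical axis, log2 normalized intensity) by treatment and length of exposure, silica rats in red and air rats in blue, with the group mean as a line and the SD as a bar (n = 6). The silica rats at 12 weeks lie between 8.74 and 10.18 and do not overlap the air rats of that week, between 6.12 and 7.69, whereas the groups overlap at 3 and 6 weeks.

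In the order of group means, the 12-week silica rats came first, followed by the silica rats of 6 and 3 weeks and the air rats of 12, 3 and 6 weeks. Below the first place, the means of neighbours in that order lay closer together than the larger of their SDs. Of the 6 silica rats at 12 weeks, 4 stood above all 30 other rats, whose highest level was the 9.02 of a silica rat at 6 weeks. The air groups covered a common range from 5.16 to 7.94.

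The silica minus air difference of Spp1 was larger at 12 weeks than at 3 weeks by 2.07 ± 0.57 and than at 6 weeks by 1.47 ± 0.57 on the log2 scale. Between 6 and 3 weeks it differed by 0.59 ± 0.57, a step that fell to 0.29 without silica replicate 5 at 6 weeks, the rat with the highest level of its group. Ordered by log2 change among the 9078 genes tested, Spp1 stood at place 133 at 3 weeks, 31 at 6 weeks and 3 at 12 weeks.

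Rats of the same group differed in Spp1 more than in most genes. The pooled SD within groups was 0.74, against a median of 0.12 over all genes, and 30 other genes had a larger one, which put Spp1 at place 31 of 9078. Among the 500 genes nearest to Spp1 in mean level the median SD was 0.13, and 2 of them had a larger SD than Spp1. The spread was present in air rats as well as in silica rats.

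The first genes set beside Spp1 were those of its receptors. Of 11 listed, 8 had a detected probe, and Itgav, Itga9 and Itgb3 had no probe here. Silica called 0 of these 8 higher at 3 weeks, 1 at 6 weeks and 1 at 12 weeks, where 7.51%, 8.8% and 11.7% of all 9078 genes were called higher, at an adjusted p under 0.05 in limma. It called 0, 0 and 2 of them lower, beside 6.08%, 8.5% and 14.2% of all genes. At an unadjusted p under 0.05, limma gave 1 higher and 2 lower at 3 weeks and 1 lower at 6 weeks. Without the 2 arrays that stood apart, 1 receptor, Cd44, was called higher at 3 weeks.

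Cd44, the hyaluronan receptor that also binds osteopontin, was the receptor that rose. Its level had a lowest value of 9.22, a median of 9.40 and a highest of 9.74 in silica rats at 12 weeks, against 8.91, 9.10 and 9.29 in air rats. The 2 groups overlapped at their ends. The difference was 0.34 ± 0.07 (limma, adjusted p = 0.000972), and under scaling of arrays to a common median in place of quantile normalization the call at 12 weeks was lost, with an adjusted p of 0.11. At 6 weeks Cd44 rose by 0.42 ± 0.07 (limma, adjusted p = 8.19e-05), with no overlap between silica and air rats. At 3 weeks it differed by 0.20 ± 0.07 (limma, adjusted p = 0.0636), and by 0.22 with a call without the 2 arrays that stood apart (limma, adjusted p = 0.0474).

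Itga5, the alpha chain of the fibronectin receptor, and Itgb5, the partner of the alpha V chain, fell at 12 weeks. Itga5 was lower by 0.29 ± 0.09 on the log2 scale (limma, adjusted p = 0.0162), and by 0.18 without silica replicate 3 at 12 weeks, when the call was lost (adjusted p = 0.0684). Without both arrays that stood apart Itga5 differed by -0.18 and was called (limma, adjusted p = 0.0218). Itgb5 differed by -0.24 ± 0.07 (limma, adjusted p = 0.00876). The beta 1 chain Itgb1, shared by most osteopontin-binding integrins, had 11.69 ± 0.12 in silica rats and 11.64 ± 0.06 in air rats at 12 weeks (SD, n = 6 each). Itga4, Itga8, Itgb6 and Itgb7 were not called at any week, with 12-week differences from 0.02 to 0.43.

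Enzymes that cut or modify osteopontin formed the next list, of which 9 of 12 genes were detected. Silica called 2 of the 9 higher at 3 weeks, 2 at 6 weeks and 3 at 12 weeks, beside 7.51%, 8.8% and 11.7% of all genes. The 3 at 12 weeks include Mmp7, which passed the detection filter through silica rats alone, and leave 2 without it. By limma 0 were lower (0, 1 and 0 at an unadjusted p under 0.05), beside 6.08%, 8.5% and 14.2% of all genes. Mmp12, the macrophage elastase, and Cpb2, a carboxypeptidase that trims the end thrombin leaves, were called at each week. The thrombin gene F2, plasminogen (Plg), Mmp2, Mmp9, the endopeptidase Phex and transglutaminase 2 (Tgm2) were not called at any week, Mmp3 was not detected, and Fam20c and Acp5 had no probe here.

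Mmp12 rose by 2.12 ± 0.29, 2.0 ± 0.29 and 1.49 ± 0.29 at 3, 6 and 12 weeks (limma, adjusted p = 5.64e-06, 4.76e-06 and 0.000236). Cpb2 rose by 0.78 ± 0.08, 0.64 ± 0.08 and 1.08 ± 0.08 (limma, adjusted p = 4.98e-08, 9e-07 and 1.6e-11), and was detected in 14 of 18 air rats. With background inferred from all probes Cpb2 differed by 0.08, 0.06 and 0.15 at 3, 6 and 12 weeks, still with a call at each, so the size of its change depends on the background. At 12 weeks no silica rat overlapped an air rat for either gene.

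Mmp7, or matrilysin, is an epithelial metalloproteinase that cleaves osteopontin. It was not detected in any air rat of the 3 weeks, and in silica rats it was detected in 1 of 6 at 3 weeks, 4 of 6 at 6 weeks and 6 of 6 at 12 weeks. At 12 weeks its measured mean was 5.72 ± 0.53 in silica rats and 4.59 ± 0.09 in air rats (SD, n = 6 each). Set against the lowest level of a detected probe, that is at least 2.06-fold higher. The measured difference was 1.13, and 0.12 with background inferred from all probes. No test is given for Mmp7, because it passed the detection filter only through the silica rats in which it was high.

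The nearest relatives of osteopontin gave little signal. Of the SIBLING family of bone and tooth phosphoproteins, Dmp1 and Dspp were not detected and Mepe had no probe here. Bone sialoprotein (Ibsp), detected on 22 of the 36 arrays, was called higher at 3 weeks, by 0.27 ± 0.07 (limma, adjusted p = 0.00747). It differed by -0.09 at 6 weeks and -0.16 at 12 weeks without a call. Other matricellular and adhesive matrix proteins went the opposite way from Spp1 where they were called: by limma 0 of 8 were higher at any week, also at an unadjusted p under 0.05, while 3, 4 and 5 were lower at 3, 6 and 12 weeks. Of all genes 6.08%, 8.5% and 14.2% were called lower. Under median scaling 0, 1 and 6 of the 8 were lower, so the calls at 3 weeks and most of those at 6 weeks depend on the scaling.

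At 12 weeks the 5 matricellular genes that fell were Vtn, Sparcl1, Postn, Ccn2 and Sparc. Vitronectin (Vtn), which shares integrin receptors with osteopontin, was lower by 0.39 ± 0.06 on the log2 scale, and its silica and air rats did not overlap (limma, adjusted p = 3.84e-06). Periostin (Postn) differed by -0.29 ± 0.07 (limma, adjusted p = 0.00109) and Sparc by -0.23 ± 0.06 (limma, adjusted p = 0.00254). Ccn2 differed by -0.24 ± 0.07 (limma, adjusted p = 0.0141), which became an adjusted p of 0.0523 without air replicate 3 at 12 weeks. Vtn and Ccn2 were also called lower at 3 and 6 weeks, Postn at 3 weeks and Sparc and Sparcl1 at 6 weeks. Of these calls, that of Vtn at 6 weeks was kept under median scaling, and that of Postn was also lost without the 2 arrays that stood apart (adjusted p = 0.0859).

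Transcription factors known from other work to act at Spp1 promoters were read next. Of 12 listed, 7 were detected, and Runx2, Fosl1, Fosl2, Mitf and Gli1 had no probe here. Spi1, the macrophage factor PU.1, had 7.62 ± 0.17 in silica rats and 7.09 ± 0.20 in air rats at 12 weeks (SD, n = 6 each). It rose by 0.53 ± 0.11 at 12 weeks (limma, adjusted p = 0.000257) and by 0.39 ± 0.11 at 6 weeks (limma, adjusted p = 0.00819), and it differed by 0.07 ± 0.11 at 3 weeks. With background inferred from all probes Spi1 was still called at 12 and 6 weeks, with differences of 0.24 and 0.12. Hif1a rose by 0.28 ± 0.08 at 12 weeks (limma, adjusted p = 0.011), a call lost under median scaling with an adjusted p of 0.147. Ets1 was lower by 0.29 ± 0.09 at 3 weeks (limma, adjusted p = 0.0199), a call not made without the 2 arrays that stood apart. Fos, Jun, Junb and the vitamin D receptor gene Vdr were not called at any week.

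The stretch of DNA where such factors are known to bind is shown so that the listed factors can be set beside the letters they read. The 250 bases before the RefSeq transcript start lie at chr14:5619805-5620054 on the minus strand of GRCr8 and inside the full span of the gene. Capitals mark the matches to TGNGGT, a loose form of the RUNX core, and the E-box:
Spp1 promoter: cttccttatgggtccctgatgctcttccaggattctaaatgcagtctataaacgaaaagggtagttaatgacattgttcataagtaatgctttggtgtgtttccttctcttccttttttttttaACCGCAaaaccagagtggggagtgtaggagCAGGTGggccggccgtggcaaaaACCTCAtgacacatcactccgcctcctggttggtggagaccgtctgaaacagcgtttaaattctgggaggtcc
Each motif was searched on both strands. TGNGGT is looser than the RUNX core, which has C or T at the N. It matched 2 times, starting 126 and 73 bases before the start and both on the reverse strand. The match at 126 bases has C at the N and is a RUNX core, while that at 73 bases has A and is not. Of all 33469 RefSeq rat promoters of the same length, 41% hold the loose form TGNGGT. The E-box CANNTG, which reads alike on both strands, matched 1 time at 96 bases (65.5% of promoters). The ETS core GGAA, the short element also found in PU.1 sites, matched 4 times (93.2% of promoters) and overlapped none of the capitals. The AP-1 letters TGANTCA (6.34% of promoters) and the hypoxia-response core ACGTG (16.6% of promoters) were not in this window. These are matches of letters only.

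Macrophage genes were set beside Spp1, with osteoclast genes added because osteoclasts are cells of the same lineage that make osteopontin. The 4 lists held 55 genes, of which 38 were detected. Silica called 17 of the 38 higher at 3 weeks (44.7%), 20 at 6 weeks (52.6%) and 23 at 12 weeks (60.5%), against the 7.51%, 8.8% and 11.7% of all genes given above. It called 1, 2 and 2 lower, beside 6.08%, 8.5% and 14.2% of all genes. The median log2 change of the 38 was 0.21, 0.22 and 0.34 at 3, 6 and 12 weeks, and the median of all genes was 0.00, -0.02 and -0.02.

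The summed normalized intensity of the 38 genes ran from 80790 to 95260 in silica rats and from 62860 to 75300 in air rats at 12 weeks. At 6 weeks it ran from 70600 to 82970 in silica rats and from 56730 to 66930 in air rats, and at 3 weeks from 76990 to 83720 in silica rats and from 61530 to 71350 in air rats. The sums did not overlap at any week, unlike Spp1 itself at 3 and 6 weeks. Most of the total came from the lipid-associated list, with a median of 57270 beside 87630 in silica rats at 12 weeks. Sums of that list did not overlap at any week. Those of monocytes and interstitial macrophages overlapped at each week (6125 to 7740 in silica rats and 5950 to 6720 in air rats at 12 weeks). Alveolar macrophage and osteoclast sums overlapped at 6 weeks. A lack of overlap was not particular to macrophage genes. Endothelial sums did not overlap at any week either, and were lower in silica rats (15190 to 17190, against 19290 to 21330 in air rats at 12 weeks). The same held, with higher sums in silica rats, for the enzymes listed above, which include Mmp12. Type II pneumocyte sums did not overlap at 3 and 6 weeks. In whole lung RNA, more macrophages and more mRNA per macrophage cannot be told apart, and their part in the Spp1 difference was not tested. Of the defining markers, Marco was not detected, and Cd68, Siglec1, Itgax, Msr1 and Csf1r had no probe here.

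Among the lipid-associated macrophage genes, 8, 8 and 10 of 13 were called higher at 3, 6 and 12 weeks. The share of all genes called higher was 7.51%, 8.8% and 11.7%. Trem2, a lipid receptor, rose by 0.67 ± 0.13, 0.87 ± 0.13 and 0.72 ± 0.13 at 3, 6 and 12 weeks (limma, adjusted p = 0.000613, 6.91e-06 and 8.75e-05). Gpnmb, a lysosome-linked glycoprotein, rose by 0.67 ± 0.11, 0.81 ± 0.11 and 0.67 ± 0.11 (limma, adjusted p = 0.000108, 2.84e-06 and 3.74e-05). Both were thus already higher at 3 weeks by about as much as at 12 weeks. With background inferred from all probes Gpnmb differed by 0.42, 0.45 and 0.45, with a call at each week.

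Galectin 3 (Lgals3) rose by 0.49 ± 0.10, 0.68 ± 0.10 and 0.56 ± 0.10 (limma, adjusted p = 0.000868, 3.82e-06 and 6.45e-05). Chi3l1, a chitinase-like secreted protein, rose by 1.0 ± 0.12, 1.02 ± 0.12 and 1.32 ± 0.12 (limma, adjusted p = 6.2e-07, 1.11e-07 and 5.92e-10). Ctsl, the cathepsin L gene, went the other way and was called lower at each week, at 3 weeks not without the 2 arrays that stood apart.

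Of the alveolar macrophage genes, 2, 4 and 3 of 6 were called higher at 3, 6 and 12 weeks, beside 7.51%, 8.8% and 11.7% of all genes. At 12 weeks the lipid exporter Abcg1 rose by 0.37 ± 0.07 and the mannose receptor Mrc1 by 0.67 ± 0.11 (limma, adjusted p = 7.13e-05 and 2.75e-05). Mrc1 was also called at 3 weeks without the 2 arrays (adjusted p = 0.0305). Of the genes of monocytes and interstitial macrophages, 5, 5 and 6 of 12 were called higher, beside the same shares of all genes. Without the 2 arrays that stood apart it was 3 of 12 at 3 weeks. The complement genes C1qa, C1qb and C1qc and the endotoxin co-receptor Cd14 rose by 0.65 to 0.69 at 12 weeks, and the call of Cd14 at 3 weeks was lost without the 2 arrays (adjusted p = 0.0828). Of the chemokine receptors that mark recruited and patrolling monocytes, Ccr2 was not called at any week. Cx3cr1 was called higher at 3 weeks, by 0.20 ± 0.07 (limma, adjusted p = 0.0498), which became an adjusted p of 0.0752 without the 2 arrays, and was not called at 6 or 12 weeks.

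Osteoclast genes were called higher for 2, 3 and 4 of the 7 detected, beside 7.51%, 8.8% and 11.7% of all genes. Without the 2 arrays that stood apart it was 1 of the 7 at 3 weeks. Atp6v0d2, a subunit of the proton pump of osteoclasts and macrophages, had a lowest level of 7.94, a median of 8.07 and a highest of 8.35 in silica rats at 12 weeks, against 6.19, 6.95 and 7.27 in air rats. It rose by 1.25 ± 0.18, 1.51 ± 0.18 and 1.24 ± 0.18 at 3, 6 and 12 weeks (limma, adjusted p = 7.31e-06, 7.76e-08 and 2.29e-06). With background inferred from all probes Atp6v0d2 differed by 0.53, 0.56 and 0.63, with a call at each week. Cathepsin K (Ctsk), the collagen-degrading protease of osteoclasts, rose by 0.64 ± 0.19, 0.98 ± 0.19 and 1.02 ± 0.19 (limma, adjusted p = 0.0236, 0.000342 and 0.000148), and its 3-week call was lost without air replicate 1 or 5 or without the 2 arrays that stood apart (highest adjusted p 0.0615). Oscar and Clcn7 were called at 12 weeks, Clcn7 not without the 2 arrays (adjusted p = 0.0817), and with background inferred from all probes they differed by 0.04 and 0.02. Oscar was also called at 6 weeks (limma, adjusted p = 0.0467), a call kept under 6 of 22 alternatives. Calcr and Tnfrsf11a were not detected, and Dcstamp, Ocstamp and Nfatc1 had no probe here.

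**Figure D2:**
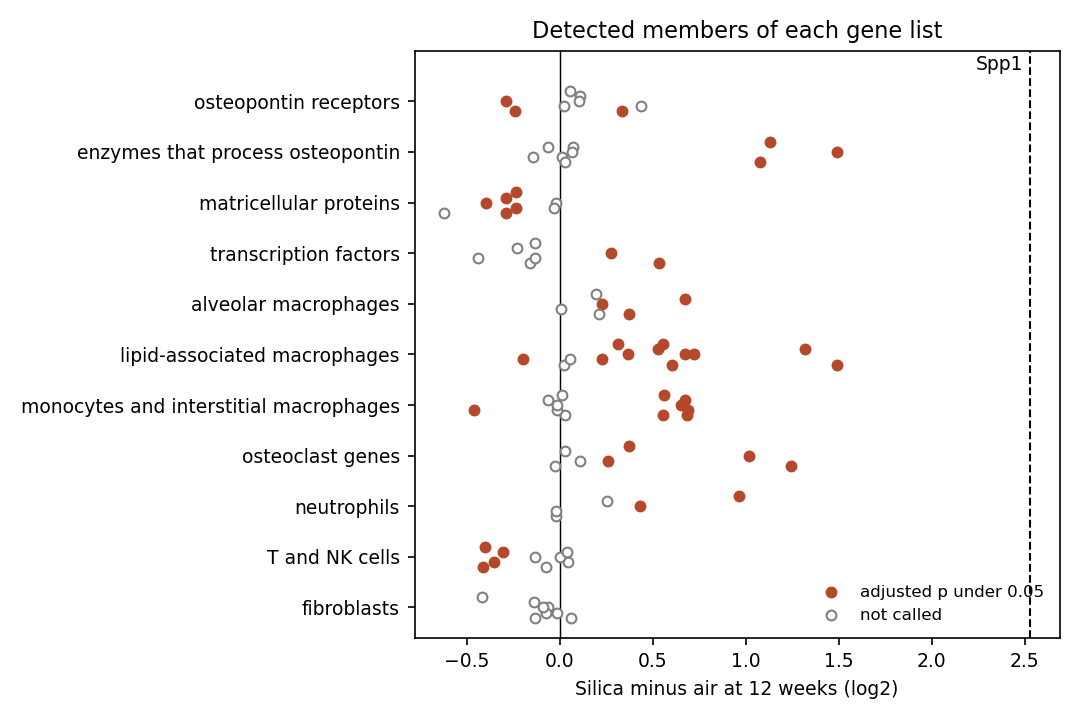
Silica minus air at 12 weeks (horizontal axis, log2) for each detected gene of 11 lists, filled where the adjusted p was under 0.05 and open where it was not (for Mmp7, not detected in air rats, no test is read). The dashed line marks Spp1 at 2.53, to the right of every list gene shown; the nearest is Mmp12 at 1.49.

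The course over the weeks was read by a test of the silica effect at 12 minus 3 weeks. It was called for 2 of the 38 macrophage and osteoclast genes, Cd14 and Il1rn, both with a larger effect at 12 weeks, and for 0 with a smaller one, where 1.53% of all genes were called larger and 1.33% smaller. The differences were -0.63 ± 0.42 for Mmp12, 0.00 ± 0.16 for Gpnmb, -0.01 ± 0.25 for Atp6v0d2 and 0.38 ± 0.27 for Ctsk (limma, adjusted p = 0.371, 1, 0.991 and 0.408). Beside them stands the 2.07 ± 0.57 of Spp1, for which no test is given. All these differences share the same rats, and whether Spp1 differed from any of these genes was not tested. The differences of the genes other than Spp1 were not refitted without the 2 arrays that stood apart.

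**Figure D3:**
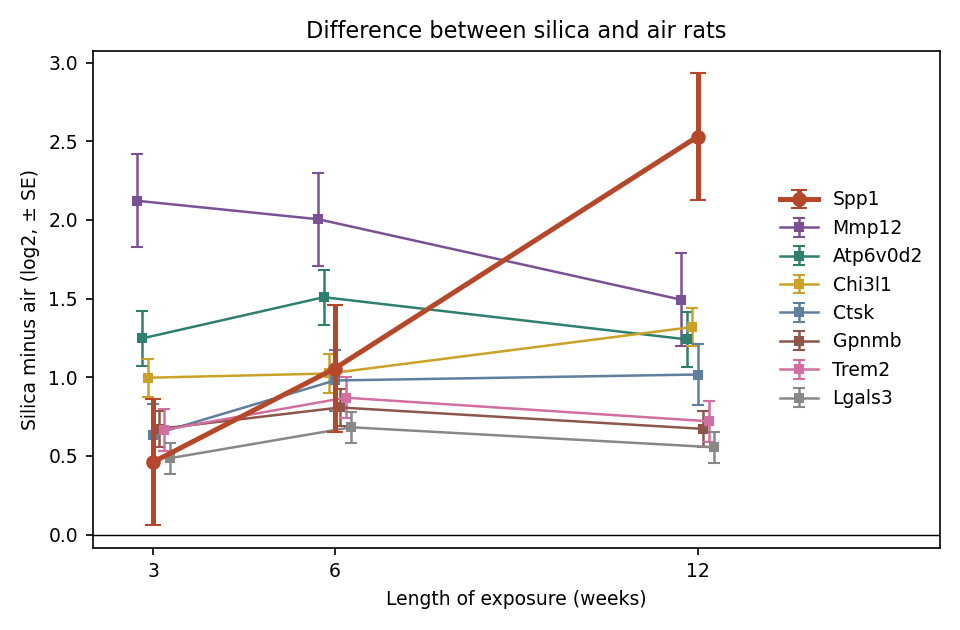
Silica minus air difference (vertical axis, log2, bars are SE of the fit, 6 rats per group) at 3, 6 and 12 weeks for Spp1 (thick red line) and 7 macrophage or osteoclast genes, shifted sideways for legibility. Spp1 goes through 0.46, 1.06 and 2.53, while Gpnmb stays at 0.67, 0.81 and 0.67.

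Genes of other cells in the lung also moved with exposure, and their part in the Spp1 difference was not tested. Among type II pneumocyte genes, 3, 5 and 3 of 6 were called higher at 3, 6 and 12 weeks, and among neutrophil genes 1, 2 and 2 of 5, beside 7.51%, 8.8% and 11.7% of all genes, with S100a8 at 0.96 ± 0.14 at 12 weeks (limma, adjusted p = 2.45e-06). Among T and NK cell genes 2, 5 and 4 of 9 were lower, and among endothelial genes 4, 3 and 3 of 5, beside 6.08%, 8.5% and 14.2% of all genes. Under median scaling 0, 2 and 4 T and NK cell genes and 0, 1 and 3 endothelial genes were lower. Fibroblast genes were lower for 2, 2 and 0 of 8 (for 1 at 3 weeks and 2 at 12 weeks without the 2 arrays that stood apart, and for 1, 0 and 1 under median scaling), smooth muscle genes for 0, 0 and 2 of 3 and B cell genes for 0, 1 and 0 of 2. Airway secretory genes had 0 of 5 called by limma at any week, with 1 lower at 12 weeks at an unadjusted p under 0.05, and 1 called lower at 12 weeks without the 2 arrays. Of the 3 detected genes of bone-forming cells Alpl rose and Omd fell at 12 weeks, with no call at 3 or 6 weeks.

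Among rats of the same treatment, Spp1 went together with macrophage genes. To see this apart from the silica effect, the mean of each group was subtracted from its rats, and silica rats and air rats were read separately. All correlations are Pearson's r across rats, given as descriptions. In the 18 silica rats r with Spp1 was above 0.5 for 20 of the 38 macrophage and osteoclast genes (52.6%, against 4.63% of all other genes). In the 18 air rats it was above 0.5 for 16 of the 38 (42.1%, against 5.59%). The median r of the 38 was 0.52 in silica rats and 0.46 in air rats, and that of all genes was -0.01 in silica rats and 0.01 in air rats. Of the lists of other cells, type II pneumocyte genes had the highest median r, 0.45 in silica rats and 0.31 in air rats. That was above the osteoclast list on its own, with 0.34 in silica rats and 0.24 in air rats. In air rats it was also above the list of monocytes and interstitial macrophages, which had 0.25, and 0.52 in silica rats.

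For Ctsk, r was 0.74 in silica rats and 0.91 in air rats, and Spearman's rho was 0.67 in silica rats and 0.93 in air rats. For Atp6v0d2 r was 0.67 in silica rats and 0.87 in air rats, and for Mmp12 it was 0.65 in silica rats and 0.84 in air rats. For Lgals3 it was 0.72 in silica rats and 0.82 in air rats.

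For Gpnmb r was 0.71 in silica rats and 0.82 in air rats, and for Trem2 it was 0.66 in silica rats and 0.86 in air rats. Without the 2 rats farthest from the median of Spp1, r for Trem2 was 0.35 in silica rats and 0.86 in air rats, so in silica rats it rested on those rats. For the other 5 genes it then lay between 0.55 and 0.67 in silica rats and between 0.73 and 0.93 in air rats. Without the 2 arrays that stood apart, r for the 6 genes ran from 0.62 to 0.80 in silica rats and from 0.81 to 0.91 in air rats.

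Within single groups of 6 rats r was less even. In the silica rats of 3 weeks it was 0.07 for Trem2 and 0.12 for Gpnmb, and for Mmp12 and Lgals3, with r of 0.74 and 0.76, Spearman's rho was 0.03 and 0.12. At 12 weeks Ctsk had an r of 0.50 in silica rats and 0.94 in air rats, and Trem2 0.18 in silica rats and 0.91 in air rats, while Mmp12 had 0.85 in both. At 6 weeks, where Spp1 spread most on the scale used here, Ctsk had 0.84 in silica rats and 0.95 in air rats. Gpnmb had 0.84 in silica rats and 0.98 in air rats. The mean raw intensity of the array, centred in the same way, had an r with Spp1 of 0.42 in silica rats and 0.02 in air rats, and the share of detected probes one of -0.09 in silica rats and 0.13 in air rats. All genes of 1 rat share the labelling and hybridization of its array, and the part of these in the correlations was not tested.

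**Figure D4:**
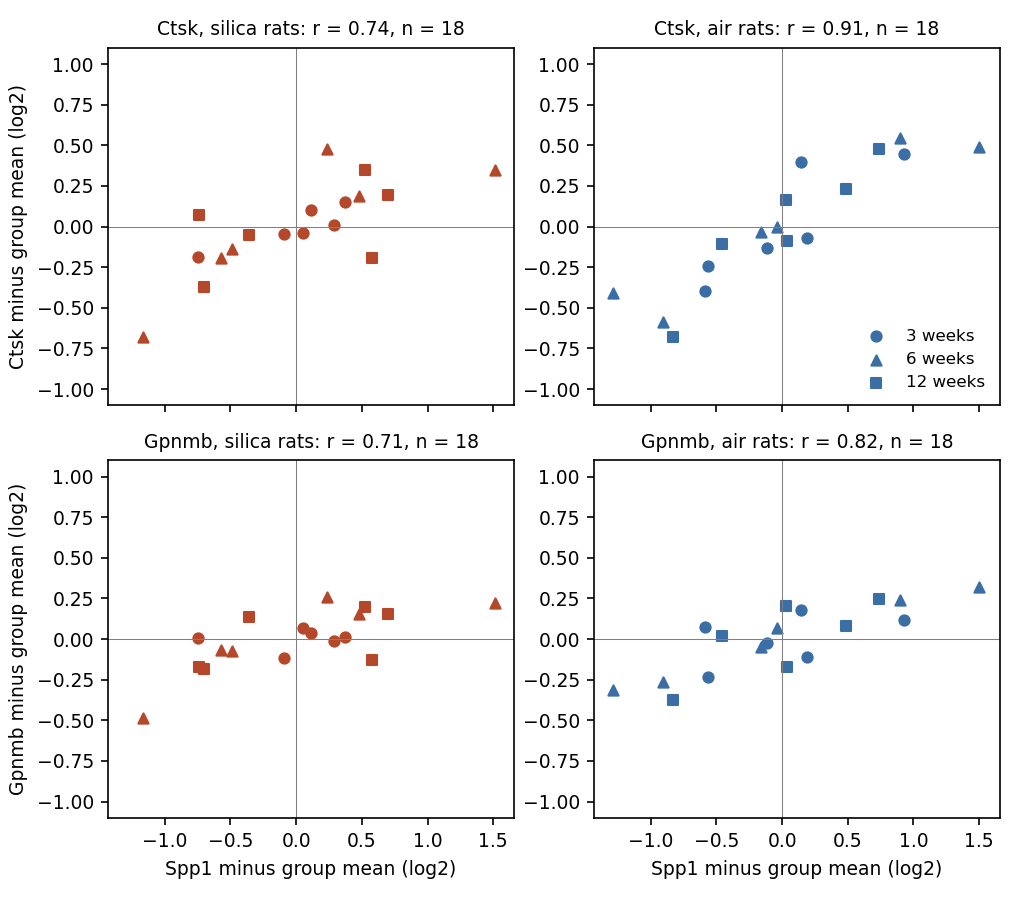
Level minus group mean (log2) of Ctsk (top) and Gpnmb (bottom) against that of Spp1 in the 18 silica rats (left) and the 18 air rats (right), 1 point per rat with a marker for each week. The points run from lower left to upper right in all panels, with r of 0.74 and 0.91 for Ctsk and 0.71 and 0.82 for Gpnmb in silica and air rats.

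The genes whose pattern over all 36 rats was most like that of Spp1 were ranked by Pearson's r of levels minus the air mean of the same week, a measure that holds the silica effect itself as well as the spread between rats. The 10 nearest of 9077 genes were Scn10a, Retnla, Ctsk, Cd14, Cxcl17, C2, Folr2, Ccl7, Gch1 and Plbd1, with r from 0.88 to 0.84, while the median of all genes was -0.05. Of these 10, 6 were also among the nearest by Spearman's rho and 2 when levels were used without subtraction, so the ranking depends on the measure.

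Retnla, a resistin-like secreted protein of alternatively activated macrophages and lung epithelium, had levels from 11.83 to 12.86 in silica rats and from 9.59 to 10.63 in air rats at 12 weeks, with no overlap. Its differences at 3, 6 and 12 weeks were 1.36, 1.40 and 2.19. Ccl7, a chemokine that attracts monocytes, had differences of 0.62, 0.88 and 1.37, and Gch1, the first enzyme of tetrahydrobiopterin synthesis, 0.34, 0.58 and 0.91. Like Spp1, each of these had its largest difference at 12 weeks. The size for Ccl7 depends on the processing: under the alternatives it ran from 0.11 to 0.75, 0.12 to 1.02 and 0.29 to 1.49.

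Scn10a, a voltage-gated sodium channel gene known from sensory neurons, had differences of 0.19, 0.29 and 0.62, from a probe detected in all silica rats but in 4, 1 and 3 of 6 air rats at 3, 6 and 12 weeks. Under the alternatives these differences ran from 0.02 to 0.24, 0.03 to 0.33 and 0.06 to 0.69. Cd14 and Folr2, a folate receptor of tissue macrophages, were on the macrophage lists. The genes with the lowest r were Bicd2, a dynein adaptor gene, at -0.85, the aldo-keto reductase gene Akr1c19 at -0.85 and the aminopeptidase gene Xpnpep2 at -0.82. Their differences at 12 weeks were -0.27, -0.58 and -0.44. These genes were picked for their likeness, so no test is given for them here.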

How the data were processed

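Lung RNA of 36 rats was measured on 36 Illumina arrays. The authors deposited non-normalized bead intensity values. A detection p-value stands beside each, per the file headers. The authors also deposited log2 values whose transformation is not given in the sources used here, and they served as an alternative. BeadStudio, lumi and limma are named, with no versions, per the submitters' processing notes. From the intensity table, background was modelled by normexp from the detection p-values of the 21204 probes on the grid of 825 negative controls (588 lay off it), followed by an offset of 16, quantile normalization and log2. This grid was set with results of the data known. Probes with detection p under 0.05 on at least 6 arrays were kept, with 1 probe per gene (the highest mean), which left 9078 genes. Of 13388 probes with a symbol, 13349 took it through the Entrez number. One limma model (3.58.1, R 4.3.3) held 6 group means with 30 residual degrees of freedom, and Benjamini-Hochberg adjustment ran over all genes. Tests were two-sided, and the script was tested on simulated data.

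Spp1, the gene lists and the alternatives were chosen with earlier results of these data known. Named beside Spp1 were all detected receptors, up to 5 called genes per list with the largest change at 12 weeks, 8 relation genes, and the 10 most and 3 least alike genes. A few further list members are named after their values were seen, in the counts they belong to. Nothing in the labels pairs rats by replicate number, and the numbers are separate rats. Figures were drawn with matplotlib. Promoter sequence came from RefSeq tables for GRCr8, and no genome was used.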

Additional observations from a re-analysis of the deposited data

Results flagged for a closer look

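For 62 genes in 6 groups, 372 sets of 6 rats were searched for a single rat far from the others, and 26 were found, where chance flags about 1 set in 20. None was in Spp1. On 2 arrays many genes stood apart at once. Air replicate 5 at 3 weeks was far from its group in Itga4 (8.07), Itga5 (8.12), Itga8 (7.03), Itgb1 (12.12) and Des (9.42). Silica replicate 3 at 12 weeks was far from its group in Itga4 (8.40), Itga5 (7.86), Itga8 (6.85), Itgb7 (8.25), Vtn (10.12), Oscar (5.10), Alpl (11.40) and Gzmb (7.35). These are the arrays that also lay toward the 6-week arrays on the first principal component.

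In silica replicate 4 at 3 weeks, the rat with the lowest Spp1 of its group, Mmp12 (8.88) and Cd14 (9.51) lay far below the other silica rats. The array of this rat had the lowest share of detected probes of all arrays (48.7%) and the highest background mean (52.3). It also lay lowest on the first principal component (-25.0), and the part of the array in these low values was not tested. In air replicate 3 at 12 weeks, the air rat with the lowest Spp1 of that week, Mmp12 (6.60) lay far below the others. In air replicate 4 at 6 weeks, the air rat with the highest Spp1, Scn10a (4.93), Cxcl17 (11.21) and Ccl7 (5.82) lay above the others. The remaining single rats were low in Itgb6 (9.62) and Lpl (13.32) in silica replicate 6 at 6 weeks and in C2 (12.00) in air replicate 6 at 6 weeks. They were high in Clcn7 (5.80) in silica replicate 4 at 6 weeks, in Omd (6.66) in air replicate 3 at 6 weeks, in Sparc (12.52) in air replicate 2 at 12 weeks and in C1qb (10.06) in air replicate 1 at 12 weeks.

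The silica effect was called different between 12 and 3 weeks for 7 of the 61 other named genes. Of all genes 1.53% were called with a larger effect at 12 weeks and 1.33% with a smaller one. Many named genes were picked for their 12-week change or their likeness to Spp1. The count therefore cannot be set against those shares, and all 7 are given as values with no test. The effect was larger at 12 weeks by 0.43 for Cd14, a list gene that is also among the 10 most like Spp1. It differed by -0.71 for the smooth muscle gene Cnn1, named for its change at 12 weeks. Mmp7, larger by 0.93, passed the detection filter only through silica rats. Scn10a (0.43), Gch1 (0.58), Plbd1 (0.36) and Akr1c19 (-0.39) were picked for how like or unlike Spp1 they were, a measure that holds the same difference.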

How the results depend on the processing

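The Spp1 difference kept its direction under every alternative: 0.16 to 0.65 at 3 weeks, 0.42 to 1.36 at 6 weeks and 1.81 to 2.68 at 12 weeks, the lowest of these from background of all probes or, at 12 weeks, from the authors' values. Leaving out 1 rat at a time gave 0.34 to 0.65, 0.75 to 1.36 and 2.36 to 2.68 at 3, 6 and 12 weeks, 1.88 to 2.22 for 12 minus 3 weeks, 1.18 to 1.78 for 12 minus 6 weeks and 0.29 to 0.89 for 6 minus 3 weeks. It gave 921 to 1283, 1263 to 1626 and 1883 to 2456 genes called, 15 to 17, 18 to 21 and 22 to 23 macrophage and osteoclast genes higher, and 30 to 36, 41 to 49 and 51 to 56 list members called. Genes called at 3 weeks were 1234, against 666 with median scaling and 813 with arrays of the same week only; at 6 weeks they were 1571, against 692 with median scaling. Higher calls were 55.3%, 50.9% and 45.1% of all calls at 3, 6 and 12 weeks, and 86.2%, 70.4% and 32.5% with median scaling. Of the 10 genes most like Spp1, 2 were shared without subtraction and 6 with Spearman's rho. Of 134 called changes of named genes, 100 held under every alternative, 34 were lost under at least 1 (22 of them under median scaling) and 0 reversed. With a replicate block Spp1 stayed at 0.46, 1.06 and 2.53. Same-numbered rats did not deviate together (90 pairs, r from -0.41 to 0.44, median -0.02, 34 over 0.1), and 8 of 36 rats matched their own number best. The 2 arrays that stood apart were an alternative added after seeing the data. The cause of these shifts was not tested. Spp1 in air rats lies near background, which limits its 3-week and 6-week differences.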

Other observations

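Fabp4, the fatty acid-binding protein of alveolar macrophages, was not called at any week. Its r with Spp1 was 0.88 in the 18 silica rats, the second highest of all genes, and 0.28 in the 18 air rats, and whether these differ was not tested. Its silica minus air differences were 0.13 ± 0.17 at 3 weeks, -0.40 ± 0.17 at 6 weeks and 0.01 ± 0.17 at 12 weeks (limma, adjusted p = 0.649, 0.107 and 0.978). The highest r in silica rats was that of Ifi30, a lysosomal thiol reductase, at 0.90, beside 0.50 in air rats. In air rats it was that of Tiam1, a Rac activator, at 0.91, beside 0.75 in silica rats. These genes were singled out after their values were seen.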
